A study of Mus musculus with 9 samples.

Results

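Mrc1, Tgfbi, Dse, Vcan, Tfec, Dab2, Ccl24 and F13a1 are 8 genes of monocytes and macrophages whose array signal lay far below that of empty vector cells with both forms of the transcription factor GATA2. They were picked from 18797 measured genes because their signals were strongly lower than empty vector with the R396Q variant and with wild type GATA2, so those falls describe the choice and are given without a test. Each gene had 1 transcript cluster, a set of probes summed to 1 log2 signal. The difference between R396Q and wild type was not itself the rule. A strong fall with both forms leaves out genes with a weak fall with either form, and so limits that difference. It is tested below on the same arrays.

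The series holds 9 arrays in 3 groups of 3, made from bone marrow cells of C57BL/6 female mice aged 8 weeks, treated with 5-fluorouracil at 150 mg/kg 6 days before harvest. One group carried a retrovirus with GATA2 R396Q and a green fluorescent protein marker, another GATA2 wild type with the marker, and the control the empty vector MIE with the marker alone. All cells had been enriched as lineage-negative, Sca-positive and Kit-positive, were infected 2 times, and were kept by a sort for green fluorescence 72 h into culture. The GATA2 forms were added by virus to cells that keep their own Gata2, and the labels give neither the promoter that drives them nor whether samples of 1 group came from separate mice or cultures. P-values then measure only the spread between these samples.

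Gata2 signal was 10.65, 10.72 and 10.53 with R396Q, 11.50, 11.24 and 10.94 with wild type, and 9.87, 9.67 and 9.65 with empty vector. It was higher than empty vector with both forms, and lower with R396Q than with wild type by 0.59 (SE 0.14), which did not pass without the replicate number in the fit (limma adjusted p = 0.0633) and did with it (0.0222). Leaving out any array but wild type 1 or 3 ended the call of R396Q against empty vector (limma adjusted p = 0.0394 on all arrays, up to 0.155). Gata2 had 1 transcript cluster, and how much of its signal came from the added forms or from the cells' own Gata2 was not tested. Whether this difference in Gata2 signal has a part in the differences between the forms below was not tested. Kit, a marker used for the enrichment, had log2 signals of 10.47 ± 0.14 with R396Q, 9.46 ± 0.04 with wild type and 12.27 ± 0.09 with empty vector (SD, n = 3 each). Lyz2, lysozyme of mature myeloid cells, stood at 13.62, 12.18 and 14.77 with empty vector, in cells labelled as stem cells. Each array holds the RNA of many cells, so fewer cells of a type and less RNA per cell cannot be told apart.

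Monocytes arise from bone marrow progenitors under the factors PU.1 and IRF8 and the receptor for colony stimulating factor, and mature in tissues into macrophages that clear debris, take up glycoproteins and remodel the matrix. GATA2 keeps stem and progenitor cells and favours mast cell and megakaryocyte fates, and people with inherited GATA2 deficiency often lack monocytes. R396Q replaces an arginine by a glutamine in the C-terminal zinc finger, the part of the protein that holds DNA. Tgfbi, Vcan and Dse build or modify extracellular matrix, Mrc1 and Dab2 serve uptake of cargo, Ccl24 and F13a1 are secreted or clotting factors, and Tfec is a transcription factor.

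The 250 bases before the start site are shown for 4 members, Mrc1 and Dse as the genes that ranked first and second by the smaller of their falls, and Tgfbi and Tfec as those with the largest gap between the forms. RefSeq windows (GRCm38.p6) were found for 7 of the 8 members, all but Ccl24, with every start site counted. The sequences run 5′ to 3′ on the gene's strand, and capitals mark matches on either strand to the GATA sites AGATAA or TGATAA, the PU.1 core GAGGAA, the E-box CACGTG, the M-box core CATGTG bound by MiT factors such as Tfec, or the AP-1 site TGACTCA.
Mrc1 (chr2:14229164-14229413, plus strand): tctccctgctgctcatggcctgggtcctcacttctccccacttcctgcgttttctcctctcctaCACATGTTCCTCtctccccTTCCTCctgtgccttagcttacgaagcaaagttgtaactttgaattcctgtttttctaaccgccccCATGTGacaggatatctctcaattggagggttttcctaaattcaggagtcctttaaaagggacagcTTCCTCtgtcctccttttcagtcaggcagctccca
Dse (chr10:34207236-34207485, minus strand): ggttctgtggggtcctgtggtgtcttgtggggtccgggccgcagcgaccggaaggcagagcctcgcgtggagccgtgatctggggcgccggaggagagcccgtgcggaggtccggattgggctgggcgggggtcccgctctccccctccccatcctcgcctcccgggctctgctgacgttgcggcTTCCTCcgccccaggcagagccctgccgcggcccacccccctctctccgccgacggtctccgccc
Tgfbi (chr13:56609336-56609585, plus strand): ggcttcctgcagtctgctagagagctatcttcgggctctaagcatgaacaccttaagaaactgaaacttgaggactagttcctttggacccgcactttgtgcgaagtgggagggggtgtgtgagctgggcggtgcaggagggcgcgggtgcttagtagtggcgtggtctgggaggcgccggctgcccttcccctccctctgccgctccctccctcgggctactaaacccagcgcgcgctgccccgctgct
Tfec (chr6:16898442-16898691, minus strand): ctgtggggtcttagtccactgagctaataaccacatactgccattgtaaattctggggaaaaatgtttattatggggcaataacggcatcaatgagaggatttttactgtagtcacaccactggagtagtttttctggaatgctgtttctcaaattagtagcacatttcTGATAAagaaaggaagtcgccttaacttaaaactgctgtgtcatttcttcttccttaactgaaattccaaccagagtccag
No matches shared bases. GAGGAA stood in 5 of the 9 windows of the 7 members, against 23.3% of 32851 windows of the same length in all genes. These windows belonged to 4 members (Mrc1, with 3 matches, Dab2, Dse and F13a1). TGATAA stood before Dab2 and Tfec (2 of 9 windows, against 7.94%), 81 to 76 bases before the Tfec start, and CATGTG before Mrc1 (1 of 9, against 12.3%). AGATAA had 0 matches, against 9.99% of windows. CACGTG also had 0, against 6.02%. TGACTCA had 0, against 4.46%. A match describes these letters only.

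The fall from empty vector was large with both forms. Over the 8 members the median difference was -3.68 on the log2 scale with R396Q (12.8-fold lower, range -4.75 to -3.37) and -4.46 with wild type (21.9-fold lower, range -6.04 to -3.22), while the median over all 21072 clusters was -0.01 in each comparison. Both comparisons share the 3 empty vector arrays. All 8 were below empty vector on all arrays, against 7.10% of clusters that lay lower without overlap with R396Q and 11.8% with wild type, and all 8 were called lower, against 0.569% and 4.35% of clusters (1.34% and 9.41% with the replicate number in the fit), which is how they were chosen. Part of the R396Q calls depended on single arrays. F13a1 was no longer called in 8 of the 9 fits that each left out 1 array (highest limma adjusted p 0.126). Dab2 was not called in 7 of them (highest 0.0897), Ccl24 in 5 (0.0897) and Tgfbi in 2 (0.0637). Mrc1, Dse, Vcan and Tfec stayed called with R396Q in every such fit, and all 8 members did with wild type. By the smaller of their falls, the members ranked from 1 (Mrc1) to 12 (Ccl24) of 18992 clusters with 1 symbol. The rule has no stated threshold, and Ctss, a lysosomal protease (rank 5, smaller fall 3.58), Ms4a6d (rank 7, 3.43), Clec7a, a receptor for fungal glucans (rank 8, 3.41), and Ccr2, the monocyte chemokine receptor (rank 11, 3.31), are the 4 genes outside the set that stood among the members. With R396Q against empty vector Ccr2 was called (limma adjusted p = 0.0157), and Ms4a6d (0.0508), Clec7a (0.115) and Ctss (0.123) were not. Between the forms, R396Q minus wild type was 0.54 for Ctss, -0.05 for Ms4a6d, 0.20 for Clec7a and -1.49 for Ccr2. The Ccr2 gap did not pass without the replicate number in the fit (limma adjusted p = 0.233) and did with it (0.0211).

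**Figure D1:**
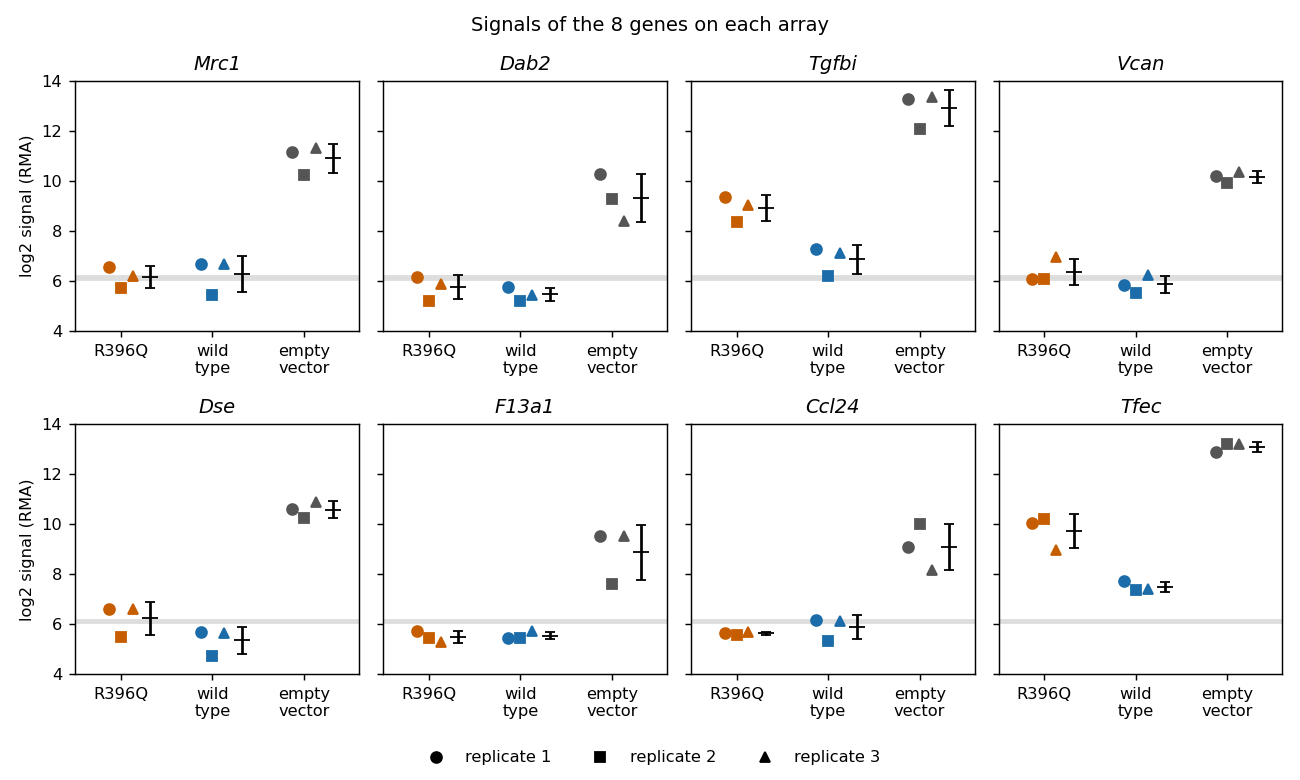
Log2 signal (RMA) of each gene on the 9 arrays, grouped as R396Q, wild type and empty vector; marker shape gives the replicate number, black bars the mean and SD of 3 arrays, and the grey band the range of array medians over all clusters (6.06 to 6.19). R396Q lies above wild type without overlap for Tgfbi and Tfec, whereas the other 6 genes lie near or below the band with both forms.

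Tgfbi encodes a secreted matrix protein induced by transforming growth factor beta. Its log2 signals were 9.37, 8.35 and 9.04 with R396Q, 7.28, 6.22 and 7.14 with wild type, and 13.28, 12.10 and 13.37 with empty vector. The 3 groups did not overlap, and in each group the second array was the lowest. Tgfbi was thus 16.0-fold lower than empty vector with R396Q (-3.999, SE 0.46) and 65.7-fold lower with wild type (-6.04, SE 0.46). It kept 6.25% of the empty vector signal with R396Q and 1.52% with wild type.

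Vcan encodes versican, a large proteoglycan of the matrix made by monocytes and by fibroblasts. It stood at 6.09, 6.07 and 6.97 with R396Q, 5.86, 5.53 and 6.23 with wild type, and 10.19, 9.93 and 10.38 with empty vector. The 2 GATA2 groups overlapped, and the empty vector arrays were close together (SD 0.23, n = 3). Vcan was 13.9-fold lower than empty vector with R396Q (-3.79, SE 0.29) and 19.6-fold lower with wild type (-4.29, SE 0.29). Dse encodes the epimerase that turns chondroitin sulfate chains, such as those of versican, into dermatan sulfate. Its signals were 6.60, 5.49 and 6.63 with R396Q, 5.68, 4.73 and 5.66 with wild type, and 10.62, 10.23 and 10.90 with empty vector. Array 2 was the lowest of each group, and R396Q 2 lay below wild type 1 and 3, so that the 2 forms overlapped. Dse was 20.3-fold lower with R396Q (-4.34, SE 0.40) and 37.5-fold lower with wild type (-5.23, SE 0.40).

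Mrc1 encodes the mannose receptor, which takes up glycoproteins and microbes and marks alternatively activated macrophages. Its signals were 6.57, 5.71 and 6.19 with R396Q, 6.70, 5.46 and 6.70 with wild type, and 11.14, 10.24 and 11.33 with empty vector. The 2 GATA2 groups overlapped fully, and array 2 was again the lowest of each group. Mrc1 was 26.9-fold lower with R396Q (-4.75, SE 0.44) and 24.6-fold lower with wild type (-4.62, SE 0.44). Dab2 encodes a clathrin adaptor that links cargo receptors to the endocytic machinery. It gave 6.16, 5.22 and 5.90 with R396Q, 5.75, 5.23 and 5.44 with wild type, and 10.30, 9.27 and 8.39 with empty vector. The empty vector arrays spread over nearly 2 log2 units (SD 0.96, n = 3), while both GATA2 groups overlapped below the array median on all 6 arrays. The falls were 11.8-fold with R396Q (-3.56, SE 0.48) and 14.4-fold with wild type (-3.85, SE 0.48).

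Ccl24 encodes eotaxin 2, a chemokine that draws eosinophils through the receptor CCR3. Its signals were 5.64, 5.57 and 5.70 with R396Q, 6.18, 5.34 and 6.12 with wild type, and 9.10, 10.02 and 8.17 with empty vector. The R396Q arrays lay within the range of the wild type arrays, and empty vector 2 was the highest array here, unlike for Tgfbi or Mrc1. Ccl24 was 11.01-fold lower with R396Q (-3.46, SE 0.46) and 9.31-fold lower with wild type (-3.22, SE 0.46). F13a1 encodes the A subunit of coagulation factor XIII, a transglutaminase that cross-links fibrin and is made by monocytes, macrophages and megakaryocytes. It stood at 5.74, 5.45 and 5.28 with R396Q, 5.46, 5.46 and 5.73 with wild type, and 9.53, 7.60 and 9.52 with empty vector. Empty vector 2 was nearly 2 log2 units below the other empty vector arrays (SD 1.11, n = 3) and still above every GATA2 array. F13a1 was 10.5-fold lower with R396Q (-3.39, SE 0.50) and 10.1-fold lower with wild type (-3.33, SE 0.50).

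Tfec encodes a basic helix-loop-helix factor of the MiT family found in cells of the macrophage lineage. Its signals were 10.03, 10.21 and 8.95 with R396Q, 7.72, 7.36 and 7.43 with wild type, and 12.87, 13.22 and 13.20 with empty vector. The 3 groups were fully parted, and array 3 was the lowest of the R396Q arrays. Tfec was 10.3-fold lower than empty vector with R396Q (-3.37, SE 0.32) and 48.3-fold lower with wild type (-5.59, SE 0.32). Together with Tgfbi it was the member whose arrays stayed above the array median with both forms.

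**Figure D2:**
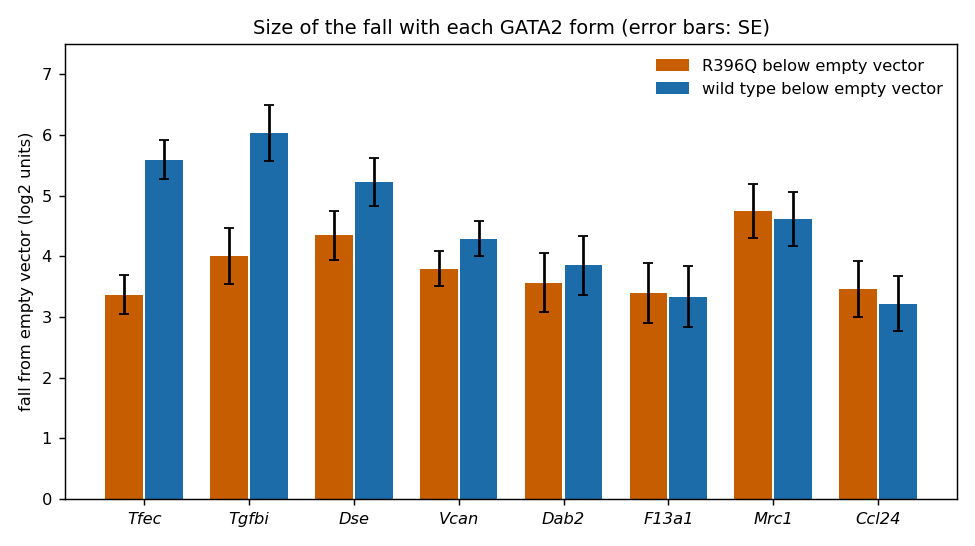
Fall from empty vector in log2 units with R396Q (orange, left bar of each pair) and with wild type (blue, right bar), with the standard error from limma, for 3 arrays per group. The bars of Tfec and Tgfbi differ most between the forms (3.37 and 3.999 with R396Q, 5.59 and 6.04 with wild type), and those of the last 3 genes are nearly level.

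The comparison of R396Q with wild type asked whether the variant lowers these genes as far as wild type does. Tfec was higher with R396Q than with wild type, 4.68-fold (2.23, SE 0.32, 95% interval 1.46 to 2.99), and passed the test (limma adjusted p = 0.0106), a call lost when only these 2 groups were fitted (0.0550). Tgfbi was 4.11-fold higher with R396Q (2.04, SE 0.46, interval 0.95 to 3.13) and just missed the threshold without the replicate number in the fit (limma adjusted p = 0.0527). The intervals are not adjusted for the number of clusters. Arrays with the same replicate number deviated together, and with the number as a block Tgfbi passed (limma adjusted p = 0.00181), as did Dse (0.0203), while Tfec kept its call (0.0158). Thus 1 of 8 members was called higher with R396Q and 0 lower, against 2.67% and 3.08% of all clusters, and with the block 3 of 8 were higher and 0 lower, against 7.10% and 5.95%. Groups did not overlap, with R396Q higher, for 2 of 8 members, against 11.0% of clusters, and for 0 of 8 with R396Q lower, against 9.59%. The median difference was 0.39 over the members and 0.00 over all clusters. Choosing genes strongly lower with both forms limits these gaps, so the counts and the median also reflect the choice.

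Within replicate numbers 1, 2 and 3 the difference of R396Q minus wild type was 2.31, 2.85 and 1.52 for Tfec, 2.09, 2.13 and 1.89 for Tgfbi, and 0.91, 0.76 and 0.97 for Dse. All 3 genes were higher with R396Q in each number, and the Tgfbi and Dse gaps varied little between numbers. Vcan was also higher with R396Q in each number (0.23, 0.53 and 0.74). Its difference of 0.50 (SE 0.29, interval -0.19 to 1.19) did not pass without the block (limma adjusted p = 0.460) or with it (0.0815).

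The other 4 members showed no difference that passed the test. Dab2 differed by 0.28 (interval -0.86 to 1.43), F13a1 by -0.06 (-1.25 to 1.12), Mrc1 by -0.13 (-1.18 to 0.92) and Ccl24 by -0.24 (-1.32 to 0.84). The limma adjusted p for these genes was 0.860 to 1.00. These intervals hold gaps in both directions for all 4 genes, so they do not show that the forms act alike. With both forms, F13a1 and Dab2 lay below the median of their array on 6 of 6 arrays, and so did Ccl24 on 6 of 6. No detection call was used here, so whether such signals lie above background was not tested.

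**Figure D3:**
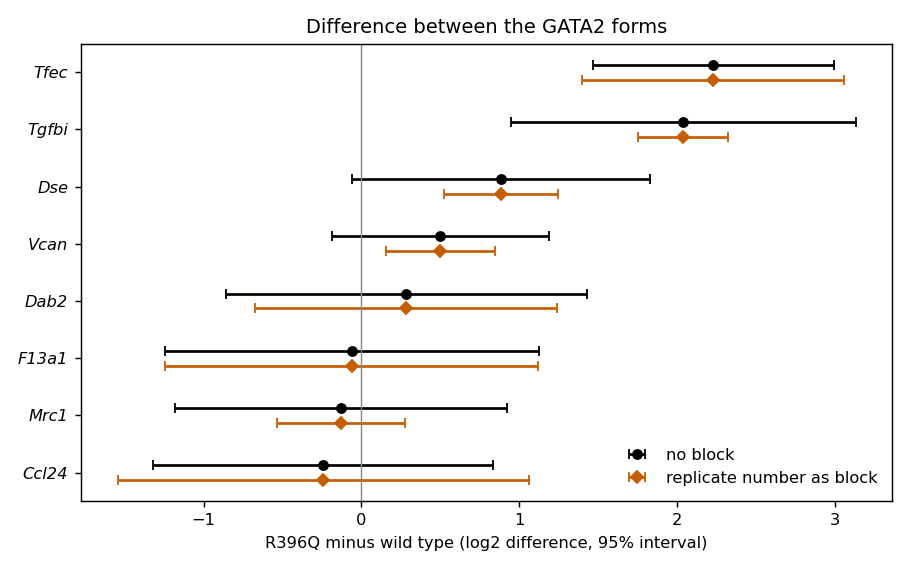
Difference of R396Q minus wild type for each gene in log2 units with its unadjusted 95% interval, without (black) and with (orange) the replicate number as a block, for 3 arrays per group. Tfec (2.23) and Tgfbi (2.04) stand clear of 0 in both fits, the intervals of Dse (0.88) and Vcan (0.50) clear 0 only with the block, and those of the lower 4 genes span 0 in both.

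Expressed as a share of the wild type fall on the log2 scale, the R396Q fall was 60.2% for Tfec (51.4% to 73.7% within numbers), 66.2% for Tgfbi (63.8% to 69.6%) and 83.1% for Dse (81.4% to 86.1%). It was 88.3% for Vcan (82.2% to 94.7%) and 92.6% for Dab2 (84.5% to 100%). F13a1, Mrc1 and Ccl24 were at 102%, 103% and 108%, with ranges of 93.2% to 112%, 94.9% to 111% and 95% to 121% within numbers. Of the 8 members, Tfec and Tgfbi alone stayed above the array median on all 6 GATA2 arrays. Whether the signals of the other 6 lay at a floor was not tested, so their shares are given with no order between them and are not set against those of Tfec and Tgfbi. A strong fall with both forms was asked of every member, which limits how low a share could be.

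Across the 9 arrays each member correlated with the mean of the other 7 at r = 0.914 (Ccl24) to 0.993 (Dse), a description in which all arrays share 3 groups. Every member was picked for a strong fall from empty vector with both forms. High correlations between members therefore follow from the choice, and the likeness to their mean given below rests on the same step between groups. Array 2 was the lowest of its group for 6 of 8 members with R396Q, 7 of 8 with wild type and 5 of 8 with empty vector. The share of all clusters that were lowest on array 2 was not counted, so these counts are not a trait of the members. Over all clusters, array 2 also had the lowest upper quartile of its group (9.09, 9.02 and 9.03 in the same order). Among 1075 clusters with 1 symbol that ranged over at least 2 log2 units, those most like the mean of the members by Pearson correlation over the 9 arrays were Tlr8, a Toll-like receptor (r = 0.986), Cd180, a Toll-like receptor relative (0.981), Il1rl2, an interleukin receptor (0.981), and Il6st, the shared chain of interleukin 6 receptors (0.979). Kynu, an enzyme of tryptophan breakdown (0.977), Ly9 (0.976), the monocyte factor Klf4 (0.974) and Kit (0.971) came next. Tlr8 stood at 5.62 ± 0.31 with R396Q, 4.87 ± 0.32 with wild type and 8.13 ± 0.14 with empty vector (SD, n = 3 each), and Klf4 at 5.44 ± 0.14, 5.31 ± 0.25 and 6.97 ± 0.35.

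Relatives and partners of the members were read next, from lists by family or pathway. For each list below, the shares over all clusters were 2.67% higher and 3.08% lower with R396Q than with wild type. Against empty vector they were 0.660% higher and 0.569% lower with R396Q, and 4.64% and 4.35% with wild type. Dsel, the other dermatan sulfate epimerase, singled out after its values were seen, had 6.16, 6.76 and 6.61 with R396Q, 5.32, 6.32 and 6.17 with wild type, and 6.32, 6.39 and 6.55 with empty vector. Its groups overlapped, and it passed the test in none of the comparisons (limma adjusted p = 0.361 to 0.956). Of 18 genes of chondroitin and dermatan sulfate synthesis, 1 was higher and 1 lower with R396Q than with wild type, 1 rose with R396Q against empty vector, and 1 rose and 1 fell with wild type. Csgalnact1, which starts the chains, was higher with R396Q than with wild type (1.66, SE 0.28) and than with empty vector (2.30, SE 0.28), while Dse was lower than empty vector. The first call ended without R396Q 1, R396Q 2, wild type 1 or wild type 3, with a limma adjusted p of 0.0625 at most, and the second without an R396Q array or empty vector 3, with 0.0616 at most. Chst15, a sulfotransferase, rose with wild type (2.28, SE 0.50), and leaving out any array but R396Q 1 or empty vector 1 ended this call (up to 0.112). With R396Q it was 2.51 above empty vector (SE 0.50), which did not pass without the block (limma adjusted p = 0.0809) and did with it (0.00306). Chsy3 (-0.49, R396Q against wild type) and Chst12 (-0.48, wild type against empty vector) had small falls, each ended by leaving out any array but 2 (wild type 2 or 3 for Chsy3, wild type 1 or 2 for Chst12).

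Tfec has the relatives Mitf, Tfeb and Tfe3, of which 1 was called. Tfeb fell slightly with wild type against empty vector (-0.23, SE 0.05), a call that ended when any array but wild type 2 or empty vector 2 was left out (limma adjusted p up to 0.0799). Without empty vector 2 the count was 1 with R396Q and 2 with wild type. Mitf differed from empty vector by -0.52 with R396Q and -0.70 with wild type (limma adjusted p = 0.373 and 0.0896, and 0.125 and 0.0274 with the block). Of the mannose receptor relatives Mrc2, Pla2r1 and Ly75, 1 was called. Ly75, an uptake receptor of dendritic cells, fell with wild type (-1.32, SE 0.31), and the call ended with the block (limma adjusted p = 0.0660) or when any array but R396Q 1 or empty vector 1 was left out. Of 8 lecticans, link proteins and partners of versican, 1 was called. The hyaluronan receptor Cd44 fell with wild type (-1.35, SE 0.24), a call that ended without wild type 3 or empty vector 1, and with the block it was also lower with R396Q (-1.19, limma adjusted p = 0.0109).

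Of 14 clathrin adaptors and partners of Dab2, 1 was called in 2 comparisons. Eps15 was lower with R396Q than wild type (-0.43, SE 0.10) and rose with wild type against empty vector (0.51, SE 0.10). The first call ended with the block (limma adjusted p = 0.0623) or without any array but wild type 3, and the second without wild type 1 or 2 or empty vector 1 or 3. Without empty vector 2 the counts against empty vector were 1 with R396Q and 2 with wild type. Of 8 transglutaminases and the factor XIII B subunit, Tgm1 rose with wild type (2.06, SE 0.43), unless any array but wild type 1 or empty vector 3 was left out. F13b, the carrier subunit of factor XIII, stayed between 4.25 and 4.45 on the 9 arrays. Of the eotaxin Ccl11 and the receptor Ccr3, 0 were called by limma in the 3 comparisons (0, 0 and 1 at an unadjusted p under 0.05 for R396Q with wild type, wild type with empty vector and R396Q with empty vector).

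Tgfbi shares fasciclin domains with Postn, Stab1 and Stab2, of which 0 were called by limma (1, 0 and 1 at an unadjusted p under 0.05 in the same order). Postn, a matrix gene of fibroblasts, stood at 11.81, 9.55 and 5.47 with R396Q, 5.55, 4.88 and 4.97 with wild type, and 5.47, 4.88 and 5.05 with empty vector. It was high on R396Q 1 and 2 alone, and 1 of the 3 relatives was called against each other group when R396Q 3 was left out.

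Other monocyte genes were lower in part. Of 42 measured monocyte and macrophage markers, 5 fell and 0 rose with R396Q against empty vector (against 0.569% and 0.660% of clusters), and 15 fell and 1 rose with wild type (against 4.35% and 4.64%), with medians of -1.01 and -1.06. The marker that rose with wild type was Ccl6 (6.08-fold, limma adjusted p = 0.00972), a call kept when each array was left out. With the block 10 fell with R396Q and 20 with wild type. The genes that fell with R396Q, named because they are few, were Ccr2 (27.8-fold), Clec4a3 (7.66-fold), Cd68 (4.80-fold), Sirpa (2.70-fold) and Trem2 (2.02-fold). Clec4a3 and Trem2, a lipid receptor of macrophages, kept the call when each array was left out. Ccr2 lost it without an R396Q array or empty vector 3, Cd68 without any array but empty vector 2, and Sirpa without any array but wild type 1 or 3 or empty vector 2. The number that fell or rose was 2 without an R396Q array or empty vector 3, 3 without wild type 2 or empty vector 1, and 10 without empty vector 2. With wild type it was 7, 8 and 10 without wild type 2, wild type 3 and empty vector 3, against 16 on all arrays.

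Csf1r, the receptor that defines the lineage and was singled out for that, stood at 5.36, 5.13 and 5.93 with R396Q, 5.24, 5.08 and 5.45 with wild type, and 8.93, 7.04 and 9.76 with empty vector. Empty vector 2 lay well below the other empty vector arrays, and still above every GATA2 array. Csf1r was 8.63-fold lower with R396Q (limma adjusted p = 0.0886, and 0.0450 with the block) and fell 10.02-fold with wild type (0.0230, and 0.0119 with the block). The wild type call ended without a wild type array or empty vector 1. Ctss was 12.0-fold lower with R396Q (limma adjusted p = 0.123, and 0.0127 with the block) and fell 17.4-fold with wild type (0.0272), a call that ended without R396Q 3, wild type 2 or 3, or empty vector 1 or 3. Mpeg1, a pore protein of macrophages, was 8.96-fold lower with R396Q (limma adjusted p = 0.153, and 0.0109 with the block) and fell 22.5-fold with wild type (0.0175), lost without wild type 2 or 3 or empty vector 1 or 3.

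Between the forms, 2 of 42 monocyte markers were higher and 1 lower with R396Q than with wild type (against 2.67% and 3.08% of clusters), and 5 and 2 with the block (against 7.10% and 5.95%). Lyz2 stood at 13.08, 12.38 and 13.83 with R396Q and 9.42, 9.47 and 9.47 with wild type, beside the empty vector values above. It was 12.5-fold higher with R396Q than wild type (3.65, SE 0.65, limma adjusted p = 0.0229), and its difference of -0.43 from empty vector with R396Q did not pass (0.865). Sirpa was also higher (0.94, SE 0.20) and Cx3cr1, the fractalkine receptor, lower (-1.38, SE 0.26), both named because the count is small. The Lyz2 call ended without R396Q 1 or 3 or a wild type array, that of Sirpa without any array but wild type 1, and that of Cx3cr1 without any array but wild type 3 or empty vector 2 or 3. The count of 3 was 0 without R396Q 1, R396Q 3 or wild type 2, and 1 without R396Q 2, wild type 3 or empty vector 1.

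Of 13 listed transcription factors of monocyte fate, 10 were measured and 2 stood in clusters of several symbols, which were left out. Of the 10, 1 rose and 1 fell with R396Q against empty vector, 2 rose and 2 fell with wild type, and 1 was lower with R396Q than wild type. Klf4 fell 2.90-fold with R396Q and 3.16-fold with wild type, and Runx1 rose 2.19-fold and 2.30-fold. The R396Q call of Klf4 ended without an R396Q array or empty vector 1, and that of Runx1 without any array but wild type 3. Irf8, which directs progenitors to monocytes, fell 4.96-fold with wild type (-2.31 on the log2 scale, SE 0.53), unless any array but empty vector 2 was left out. With R396Q Irf8 was 3.87-fold lower than empty vector (-1.95, SE 0.53), which did not pass (limma adjusted p = 0.182). Its difference of R396Q minus wild type (0.36, SE 0.53) did not pass either (limma adjusted p = 0.830). Id2 rose 5.18-fold with wild type and was 5.99-fold lower with R396Q (limma adjusted p = 0.0137 and 0.0132), the second call ending without R396Q 1.

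Of 15 genes of alternative macrophage activation, to which Mrc1 belongs by function, 0 rose and 1 fell with R396Q against empty vector, 1 rose and 2 fell with wild type, and 1 was higher and 1 lower with R396Q than wild type. Mgl2, a lectin of such macrophages, fell 4.33-fold with R396Q and 4.04-fold with wild type (limma adjusted p = 0.00244 and 0.000393), calls kept when each array was left out. With the block 3 were higher and 2 lower with R396Q than wild type, 2 rose and 3 fell with wild type, and 1 rose and 1 fell with R396Q. Pparg, a lipid sensor, was 5.08-fold higher with R396Q than wild type (limma adjusted p = 0.00575), also kept. Ccl17, a chemokine, was lower (-0.88, SE 0.14), lost without R396Q 1 or 3 or wild type 1.

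**Figure D4:**
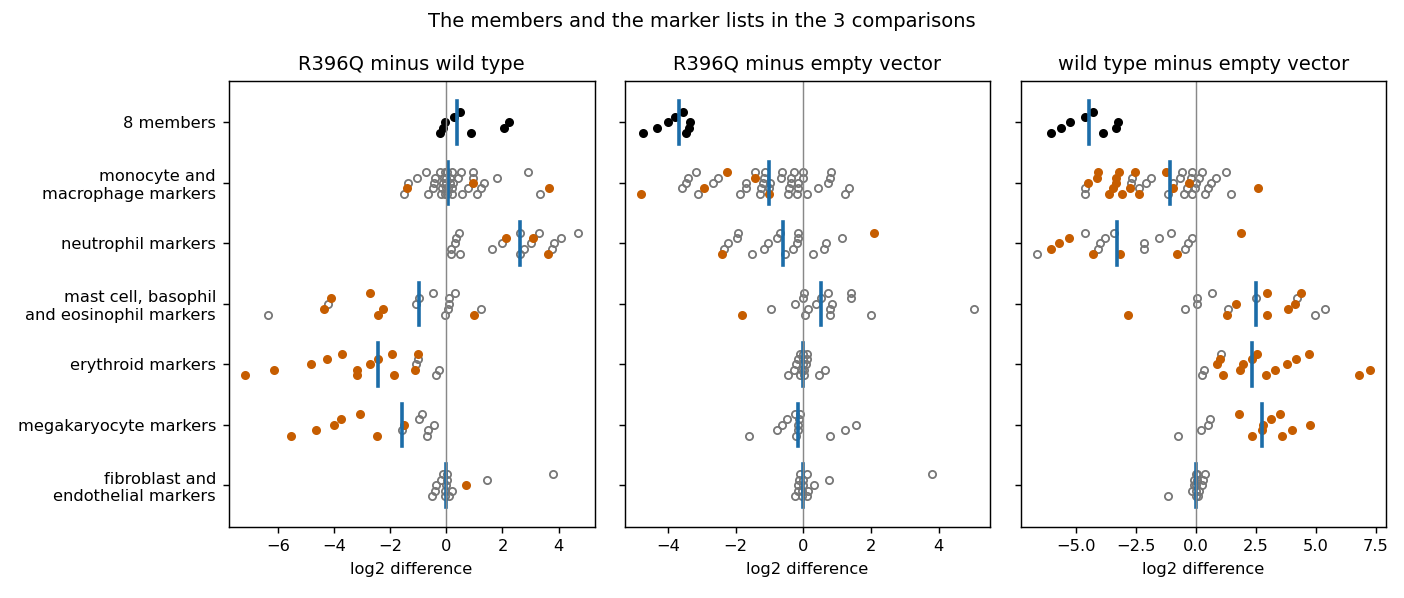
Log2 difference of the 8 members (black) and of the measured genes of 6 marker lists in the 3 comparisons; orange points passed limma at an adjusted p under 0.05, open points did not, blue bars are medians, and x scales differ between panels. The members lie between -4.75 and -3.37 for R396Q minus empty vector, a fall they were picked for. The erythroid list, not picked that way, centres on -0.01 there. For R396Q minus wild type, 20 of 20 neutrophil markers lie above 0.

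Markers of other cell types moved beside the members. The summed log2 signal of the 42 monocyte markers was 16.46 to 17.67 with R396Q, 16.38 to 17.52 with wild type and 17.04 to 18.35 with empty vector. Such sums, here and below, add unlogged signals, so the brightest genes weigh most. Of these markers, 34 lay below and 7 above 0 for R396Q minus empty vector, and 32 and 10 for wild type minus empty vector. Of 20 neutrophil markers, 20 were above 0 for R396Q minus wild type (median 2.61), and 3 were called higher (11 with the block). They were Mmp8 (3.63, SE 0.35), Csf3r (3.08, SE 0.39) and Ctsg (2.12, SE 0.47), Ctsg being lost without any array but wild type 1. The summed log2 signal of that list was 16.98 to 18.76 with R396Q, 14.08 to 16.22 with wild type and 18.06 to 19.15 with empty vector. Against empty vector 1 neutrophil marker rose and 1 fell with R396Q, and 1 rose and 6 fell with wild type (1 and 2, and 1 and 14, with the block). Cxcr2 was the marker that rose with each form (4.21-fold with R396Q and 3.74-fold with wild type), and Mmp8 the 1 that fell with R396Q (5.26-fold). The 2 calls with R396Q were 1 without an empty vector array and 0 without any other array. The 7 calls with wild type were 4 without R396Q 2 or empty vector 2 and 3 without empty vector 1. The R396Q mean lay between those of the other groups for Tfec, Tgfbi, Dse, Vcan and Dab2, without overlap of groups only for Tfec and Tgfbi. The part of neutrophil precursors in the signals of these members was not tested.

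Of 17 erythroid markers 13 were lower with R396Q than wild type, and 14 rose with wild type against empty vector. Between R396Q and empty vector 0 were called by limma (0 at an unadjusted p under 0.05). The members were 10.3-fold to 26.9-fold lower in that comparison, which is how they were chosen. Of 13 megakaryocyte markers 7 were lower with R396Q than wild type (4 without R396Q 2), 9 rose with wild type and 0 were called by limma with R396Q against empty vector (3 at an unadjusted p under 0.05, and 1 called with the block or without empty vector 3). Of 17 mast cell, basophil and eosinophil markers, 1 (Kit) was higher and 5 lower with R396Q than wild type, 7 rose and 1 fell with wild type, and 0 rose and 1 fell with R396Q (1 and 1 with the block). F13a1, also a megakaryocyte gene, was below the array median on the 3 wild type arrays, on which those 9 megakaryocyte markers were raised. A low F13a1 signal with wild type was part of its choice, and the part of megakaryocytes in that signal was not tested.

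Fibroblasts also make Vcan, Tgfbi and Dse. Of 15 fibroblast and endothelial markers, 0 were called by limma with R396Q or with wild type against empty vector (3 and 0 at an unadjusted p under 0.05). Their summed log2 signal was 11.05 to 12.26 with R396Q, 9.72 to 10.50 with wild type and 10.04 to 10.79 with empty vector. Without R396Q 3 or empty vector 3, 1 marker was called with R396Q against empty vector. The group mean lay above the array median for 4 of 15 markers with R396Q, 5 with wild type and 4 with empty vector, and Pdgfrb, the platelet-derived growth factor receptor of fibroblasts, singled out after its values were seen, averaged 9.93, 8.47 and 9.62 in these groups. Thy1 was higher with R396Q than wild type (0.71, SE 0.13), lost without an R396Q or wild type array. Of 13 dendritic cell markers, 0 rose and 1 fell with R396Q against empty vector, 1 rose and 3 fell with wild type, and 1 was lower with R396Q than wild type (Zbtb46, -0.43, SE 0.07, lost without R396Q 2). The 1 call with R396Q was lost without an R396Q array, and the 4 with wild type were 3 without R396Q 3, 1 without wild type 2 or empty vector 1, and 2 without any other array. Of 12 stem and progenitor markers, 1 rose and 1 fell with R396Q against empty vector, 2 rose and 3 fell with wild type, and 2 were higher and 1 lower with R396Q than wild type. The 5 calls with wild type were 8 with the block and 3 without R396Q 1, wild type 1 or 3, or empty vector 1, and the 2 with R396Q were 1 without R396Q 1 or 2 or empty vector 1 or 3. Cd34, a progenitor surface marker, was 18.6-fold higher with R396Q than wild type (4.22 on the log2 scale, SE 0.13). Its difference of -0.41 from empty vector with R396Q did not pass (limma adjusted p = 0.270).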

How the data were processed

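Gene expression was measured on 9 arrays, 3 per group. Per the submitters' processing notes, the authors used RMA in Affymetrix Expression Console, which corrects background, normalizes and sums probes, and the log2 values were used as deposited. The version and genome build are not given in the sources used here. Symbols came from the array annotation (18992 of 21072 clusters had 1 symbol), and 418 were updated through gene identifiers. All sample columns were used. The cluster identifiers are of a type used on arrays later than the exon array named in the labels. Repeated values are common: 6935 of 21072 clusters, each member among them, held 9 distinct values and 4412 held fewer than 6, and all were kept in the tests, the adjustment and the background shares.

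Tests used limma 3.58.1 under R 4.3.3 (3 group means over 9 arrays, empirical Bayes, 2-sided), with Benjamini-Hochberg adjustment over the 21072 clusters and a threshold of 0.05. The fit was tested on simulated data. Arrays of the same number deviated from their group means together (r = 0.451 to 0.693 in 9 pairs, against -0.537 to -0.0900 in 18 pairs of unlike number), so an alternative fit holds the number as a block, and the labels do not say what it stands for. Other alternatives are given in the closing section.

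The members, the 18 gene lists (250 entries, 233 measured) and the tests were chosen with earlier results of these data known. Named genes were the members, Gata2, the 8 clusters most like the members, up to 6 called genes per list by size, and genes of lists with 8 or fewer symbols. Others were named after their values were seen. The number of arrays limits the precision.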

Additional observations from a re-analysis of the deposited data

How the results depend on the processing

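The medians of the members against empty vector stayed within 1 SD of the arrays under all 16 other settings in each comparison. Leaving out each array gave -3.97 to -3.62 with R396Q and -4.68 to -4.16 with wild type. In some of these omissions F13a1, Dab2, Ccl24 and Tgfbi were no longer called with R396Q against empty vector. The number of members called between R396Q and wild type was 1 of 8. It was 3 with the replicate block, 2 after subtraction of array medians, quantile normalization, removal of the dimmest 30% of clusters or trend and robust options, and 0 with only the 2 groups compared (Tfec limma adjusted p = 0.0550, Tgfbi 0.0825). It was 1 to 2 when arrays were left out, with Tgfbi called without empty vector 2 (0.0357). Over these omissions the Tfec difference was 1.99 to 2.62 (adjusted p = 0.00202 to 0.0453) and that of Tgfbi 1.71 to 2.32 (0.0357 to 0.168). The direction of 2 uncalled differences turned when arrays were left out, Mrc1 at -0.54 to 0.095 and F13a1 at -0.19 to 0.043. Monocyte marker calls were 7 (R396Q with wild type) and 10 (R396Q with empty vector) with the replicate block, and ran from 0 to 4 and from 2 to 10 when arrays were left out, and from 7 to 19 for wild type with empty vector. The cause of these shifts was not tested.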
